A study of Mus musculus with 37 samples.

Results

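The Cyp3a genes encode cytochrome P450 monooxygenases of subfamily 3A, the enzymes that hydroxylate steroids, bile acids and a large share of drugs in the liver. Rows were taken by symbol: 8 genes, Cyp3a11, Cyp3a13, Cyp3a16, Cyp3a25, Cyp3a41a, Cyp3a41b, Cyp3a44 and Cyp3a59, out of 24421 gene rows. Of these, 7 passed the filter on low counts and were tested; Cyp3a41b had 0 counts in all 37 libraries and was not. A ninth row of the subfamily, Cyp3a57, is described apart from the 8.

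The samples were livers of C57BL/6 mice aged 2 months, with 1 count file each, in 6 groups. The wild type (WT) had 6 male and 6 female libraries. Mice with the substitution Y665F in STAT5B, the transcription factor that carries the growth hormone signal to hepatocyte genes, gave 9 male and 6 female libraries, and mice with Y665H at the same residue gave 4 male and 6 female libraries. The residue lies in the SH2 domain, which binds phosphotyrosine. Whether animals carried the change on a single allele or on both, and whether each library is a separate animal, is not stated in the labels, so p-values measure the spread between these libraries, which may be technical, and "male" or "female" with a value stands for a library. The substitution itself leaves no trace in gene counts. Stat5b RNA was 96.4 ± 10.5 CPM (counts scaled by TMM to a common library total; SD, n = 6) in WT males and between 82.2 and 108 CPM as a mean in the other groups.

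In adult mouse liver several Cyp3a genes are sex-dependent. The pituitary secretes growth hormone in pulses in males and more continuously in females, and STAT5B relays the pattern to genes of the P450 clusters. Cyp3a11, the counterpart of human CYP3A4, is the most abundant form in both sexes and responds to the pregnane X receptor (PXR, gene Nr1i2), whereas Cyp3a16, Cyp3a41a and Cyp3a44 are known as female-predominant forms, and Cyp3a16 also as a form of fetal and newborn liver. Cyp3a25 and Cyp3a13 are constitutive forms found also in the intestine.

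All members lie on chromosome 5 (GRCm38, GENCODE M21), and each principal transcript has 13 exons. Cyp3a13 stands apart at chr5:137892932-137921619, on the minus strand. The others form a cluster in the order Cyp3a57, Cyp3a16, Cyp3a41b, Cyp3a41a, Cyp3a44, Cyp3a11, Cyp3a25 and Cyp3a59, from chr5:145345279-145390926 (Cyp3a57) to chr5:146079257-146113287 (Cyp3a59), with these 2 end genes on the plus strand and the rest on the minus strand. Cyp3a41a lies at chr5:145694049-145720136, Cyp3a44 at chr5:145773983-145805874, Cyp3a16 at chr5:145436309-145469723, Cyp3a11 at chr5:145854426-145879964 and Cyp3a25 at chr5:145977194-146009618.

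The genes divide into near relatives by sequence. Coding sequences were 95.8% identical between Cyp3a41a and Cyp3a44, 92.8% between Cyp3a41a and Cyp3a16, 95.2% between Cyp3a41a and Cyp3a11, and 97.5% between Cyp3a25 and Cyp3a59. Cyp3a13 was 77.7% identical to Cyp3a11 and 77.9% to Cyp3a25. In the 250 bases before the transcription start (RefSeq, GRCm38.p6), Cyp3a41a was 99.6% identical to Cyp3a41b, 94.4% to Cyp3a44 and 91.4% to Cyp3a16, but only 73.3% to Cyp3a11, its near relative in the coding part. The last 150 of these bases are shown because they are much alike in the 3 tested genes that rose with Y665F. Each is written 5′ to 3′ on the gene's own strand, and capitals mark bases that mismatch or are extra against Cyp3a41a in a pairwise alignment; bases of Cyp3a41a that are missing cannot be marked. The windows are chr5:145720137-145720286 for Cyp3a41a, chr5:145584731-145584880 for Cyp3a41b, chr5:145805875-145806024 for Cyp3a44, chr5:145469724-145469873 for Cyp3a16 and chr5:145879855-145880004 for Cyp3a11, all on the minus strand. For Cyp3a11 the RefSeq start lies inside the gene as GENCODE draws it, so 110 of its 150 bases fall within the GENCODE gene given above, against 0 for the other 4; its identities in this window rest on the RefSeq start.
Cyp3a41a: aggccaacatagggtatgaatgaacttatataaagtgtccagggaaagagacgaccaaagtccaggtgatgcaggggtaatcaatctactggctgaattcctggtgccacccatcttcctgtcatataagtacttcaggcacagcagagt
Cyp3a41b: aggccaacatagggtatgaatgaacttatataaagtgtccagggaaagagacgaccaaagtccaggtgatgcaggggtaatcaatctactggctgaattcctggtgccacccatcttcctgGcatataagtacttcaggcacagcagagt
Cyp3a44: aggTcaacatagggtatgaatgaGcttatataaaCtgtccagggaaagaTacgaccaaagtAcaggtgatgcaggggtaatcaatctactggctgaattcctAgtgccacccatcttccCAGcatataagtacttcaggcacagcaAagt
Cyp3a16: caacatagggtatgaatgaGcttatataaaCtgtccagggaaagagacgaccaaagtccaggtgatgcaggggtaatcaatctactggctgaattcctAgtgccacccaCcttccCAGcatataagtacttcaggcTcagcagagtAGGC
Cyp3a11: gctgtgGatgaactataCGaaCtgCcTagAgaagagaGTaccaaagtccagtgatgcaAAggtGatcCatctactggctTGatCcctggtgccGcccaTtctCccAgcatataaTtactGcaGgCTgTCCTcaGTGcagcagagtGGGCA
Cyp3a41b had 1 mismatch and Cyp3a44 had 10, with no gap. Cyp3a16 had 8 mismatches, 4 extra bases and 4 missing ones, and Cyp3a11 had 21, 16 and 16. The STAT motif TTCNNNGAA, which reads the same on both strands, occurred in 0 of the 9 Cyp3a promoters (250 bases before to 50 after the start) and in 2288 of 27025 promoters in the table (8.47%). A pair of AGTTCA letters, searched on both strands as the repeats that PXR binds, occurred in 0 promoters as a direct repeat spaced by 3 bases and in 2 of 27025 (0.0074%) as an everted repeat spaced by 6, neither of them in a Cyp3a gene. No match says only that these letters are not in this window.

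Cyp3a41a and Cyp3a41b cannot be separated well by short reads, and the row at 0 has to be read with this in view. Their coding sequences differed at 2 positions. The bases around both are shown because they are all that sets the coding parts apart; positions count from 1 at the first base of the start codon, and the capital is the differing base.
Cyp3a41a, G120A: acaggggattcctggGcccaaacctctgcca
Cyp3a41b, G120A: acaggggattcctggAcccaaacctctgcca
Cyp3a41a, G336T: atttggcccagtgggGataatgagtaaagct
Cyp3a41b, G336T: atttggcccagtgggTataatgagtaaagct
Of 1961 windows of 100 bases along the Cyp3a41a transcript, 180 (9.18%) occurred in no other transcript, and 1734 were shared with Cyp3a41b. Of 1965 windows along the Cyp3a41b transcript, 231 (11.8%) occurred in no other transcript, a larger share than for Cyp3a41a. Why the Cyp3a41b row held 0 was not tested. The unique share was 94.6% for Cyp3a44, 94.0% for Cyp3a25, 94.4% for Cyp3a59, 99.7% for Cyp3a11, 99.9% for Cyp3a16 and 100% for Cyp3a13. The files tally reads aligned to more than 1 place in a row apart from the genes, so a read that fits both copies equally is set aside there unless the counter also added it to genes, a setting not given in the sources used here. The level printed for Cyp3a41a and its share of the family's reads may therefore be too low. A count of 0 for Cyp3a41b allows up to 3 counts in a group, or 0.00479 CPM in Y665F males and 0.0173 CPM in Y665F females, counting error only.

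Counts assigned to genes ranged from 49141951 to 73937726 per male library and from 24388434 to 40864173 per female library. The depths of the sexes did not overlap, so a processing step that followed sex cannot be told apart from sex. Rows naming no gene took 32.4% to 49.9% of counted items, made up mostly of reads aligned to more than 1 place (19.0% to 30.1% of counted items) and reads in no annotated gene (7.21% to 19.9%). Of the 4 hepatocyte markers in the files none was at 0. Their sum moved with Y665F, without overlap: 111342 to 127666 CPM in Y665F males against 63297 to 73233 in WT males, and 177920 to 209892 CPM in Y665F females against 88493 to 112952 in WT females. Alb (albumin), singled out after its values were seen, rose in both (adjusted p 3.41e-11 in males and 5.15e-11 in females), whereas Apoa1 and Ttr fell and Fgb was not called, and the sum without Alb was 9035 to 14645 against 11514 to 13086 CPM in males and 8123 to 11353 against 11799 to 16597 CPM in females. The part of this shift in the Cyp3a values was not tested.

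Y665F raised Cyp3a16, Cyp3a41a and Cyp3a44 and lowered Cyp3a11 in both sexes, and Y665H lowered the first 3 in females. The test was edgeR's quasi-likelihood test with Benjamini-Hochberg adjustment over 15152 genes, called under an adjusted p of 0.05, and it serves for every adjusted p given. Counted over the family, Y665F changed 6 of 7 tested members in males (3 higher, 3 lower), where 52.5% of all genes were called, 27.2% higher and 25.3% lower. In females it changed 5 of 7 (4 higher, 1 lower), where 41.0% were called, 17.8% higher and 23.3% lower. Y665H changed 1 of 7 in males, lower, against 8.40% of all genes (5.22% higher, 3.18% lower), and 3 of 7 in females, all lower, against 7.50% (4.40% higher, 3.10% lower). Y665H and Y665F differed in 5 of 7 in males (2 higher and 3 lower in Y665H; 41.7% of all genes, 20.5% higher and 21.2% lower) and in 6 of 7 in females (3 higher, 3 lower; 56.5% of all genes, 30.5% and 26.0%). Males and females differed in 6 of 7 members in WT (3 higher and 3 lower in males; 49.7% of all genes, 23.0% and 26.8%). In Y665F they differed in 1 of 7, higher in males (43.1% of all genes, 22.8% higher and 20.3% lower), and in Y665H in 4 of 7 (1 higher, 3 lower; 30.9% of all genes, 14.2% and 16.7%). The interaction was called for 5 of 7 with Y665F (3 above and 2 below 0; 27.7% of all genes, 16.1% and 11.5%) and for 2 of 7 with Y665H, both below 0 (5.24% of all genes, 2.94% above and 2.30% below). The median log2 fold change of the 7 was 0.14 and 0.81 with Y665F in males and females and 0.09 and 0.30 with Y665H, beside -0.01, -0.02, 0.01 and 0.00 over all genes. Since 3 of the 7 passed the filter only through the groups where they are high, these counts describe the family and compare it with nothing.

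**Figure D1:**
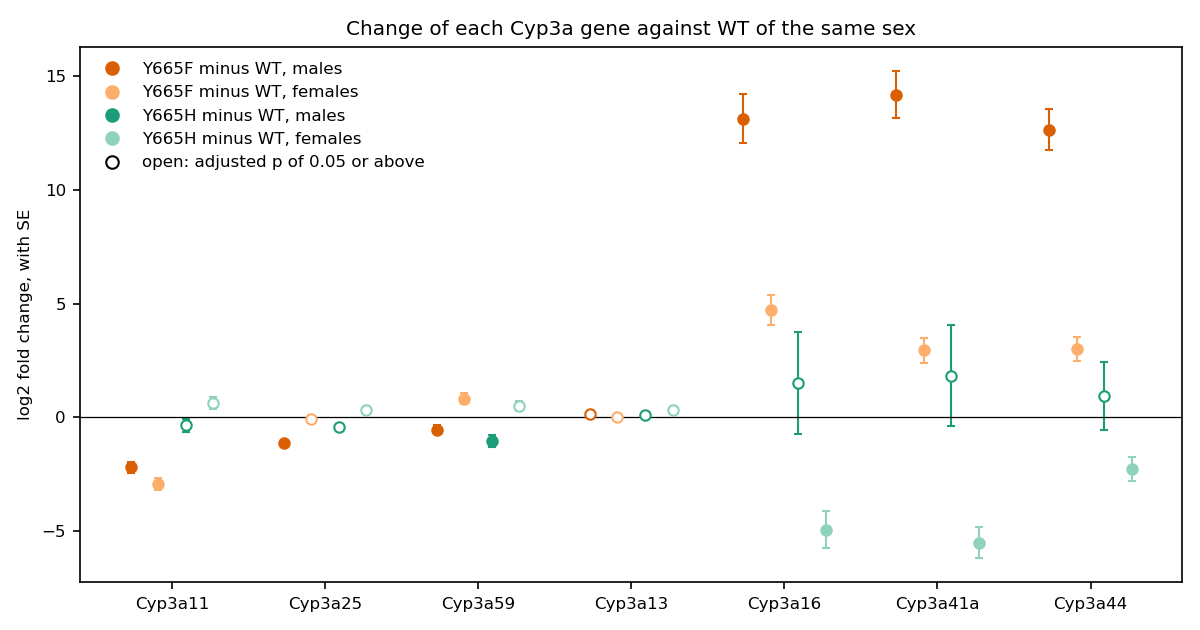
Log2 fold change against WT of the same sex with its standard error, for the 7 tested genes and the 4 comparisons given by colour; filled points passed an adjusted p of 0.05. Cyp3a16, Cyp3a41a and Cyp3a44 rise with Y665F in both sexes and fall with Y665H in females, whereas the called changes of Cyp3a11 are falls with Y665F in both sexes.

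Cyp3a11 fell in both sexes with Y665F. Its level in WT males was 5090, 4906, 3829, 4925, 5695 and 3987 CPM. In Y665F males it ran from 672 through a median of 945 to 1571 CPM. The groups did not overlap: all 9 Y665F libraries lay below every WT male. The log2 fold change was -2.21 (SE 0.24), a fall of 4.62-fold, with an adjusted p of 1.32e-09. In bulk liver, fewer cells that express a gene and less RNA per cell cannot be told apart. In WT females the level was 2301, 2185, 2722, 2527, 2217 and 2515 CPM. In Y665F females it was 571, 268, 524, 178, 253 and 84.7 CPM, so the 6 libraries differed among themselves by 6.75-fold while the WT females differed by 1.25-fold. The log2 fold change in females was -2.95 (SE 0.28), 7.70-fold, adjusted p 1.68e-10. The difference between the sexes in the size of the fall was 0.74 on the log2 scale (SE 0.36) and did not pass the test (adjusted p 0.121); leaving out Y665F female replicate 1 or 3 in turn put it past the threshold (0.0284 and 0.0455).

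With Y665H, Cyp3a11 did not move past the threshold. Y665H males had 4193, 3703, 2871 and 3921 CPM, overlapping the WT males, and a log2 fold change of -0.37 (SE 0.30, adjusted p 0.482). Y665H females had 3568, 4338, 4248, 2877, 3396 and 3572 CPM. Each of these 6 exceeded every WT female, yet the log2 fold change of 0.60 (SE 0.26) had an adjusted p of 0.146 when the spread was shared over all 6 groups and 0.0155 when only the groups compared were fitted. Between the substitutions the difference was called in both sexes: Cyp3a11 was 3.58-fold higher in Y665H than in Y665F males (adjusted p 4.96e-07) and 11.7-fold higher in Y665H than in Y665F females (adjusted p 2.08e-12).

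The order of Cyp3a11 levels was WT males, Y665H males, Y665H females, WT females, Y665F males and Y665F females. Ranges overlapped between WT and Y665H males and between Y665H males and females, and not between the later neighbours. The male excess was 1.97-fold in WT (log2 0.97, SE 0.27, adjusted p 0.00264) and 3.28-fold in Y665F (adjusted p 1.25e-06), and was not detected in Y665H (log2 0.0021, SE 0.29). The WT value had an adjusted p of 0.138 when the share of reads in no gene entered the fit; among WT the share was 18.8% ± 0.893 (SD, n = 6) for males and 11.6% ± 1.97 (SD, n = 6) for females.

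**Figure D2:**
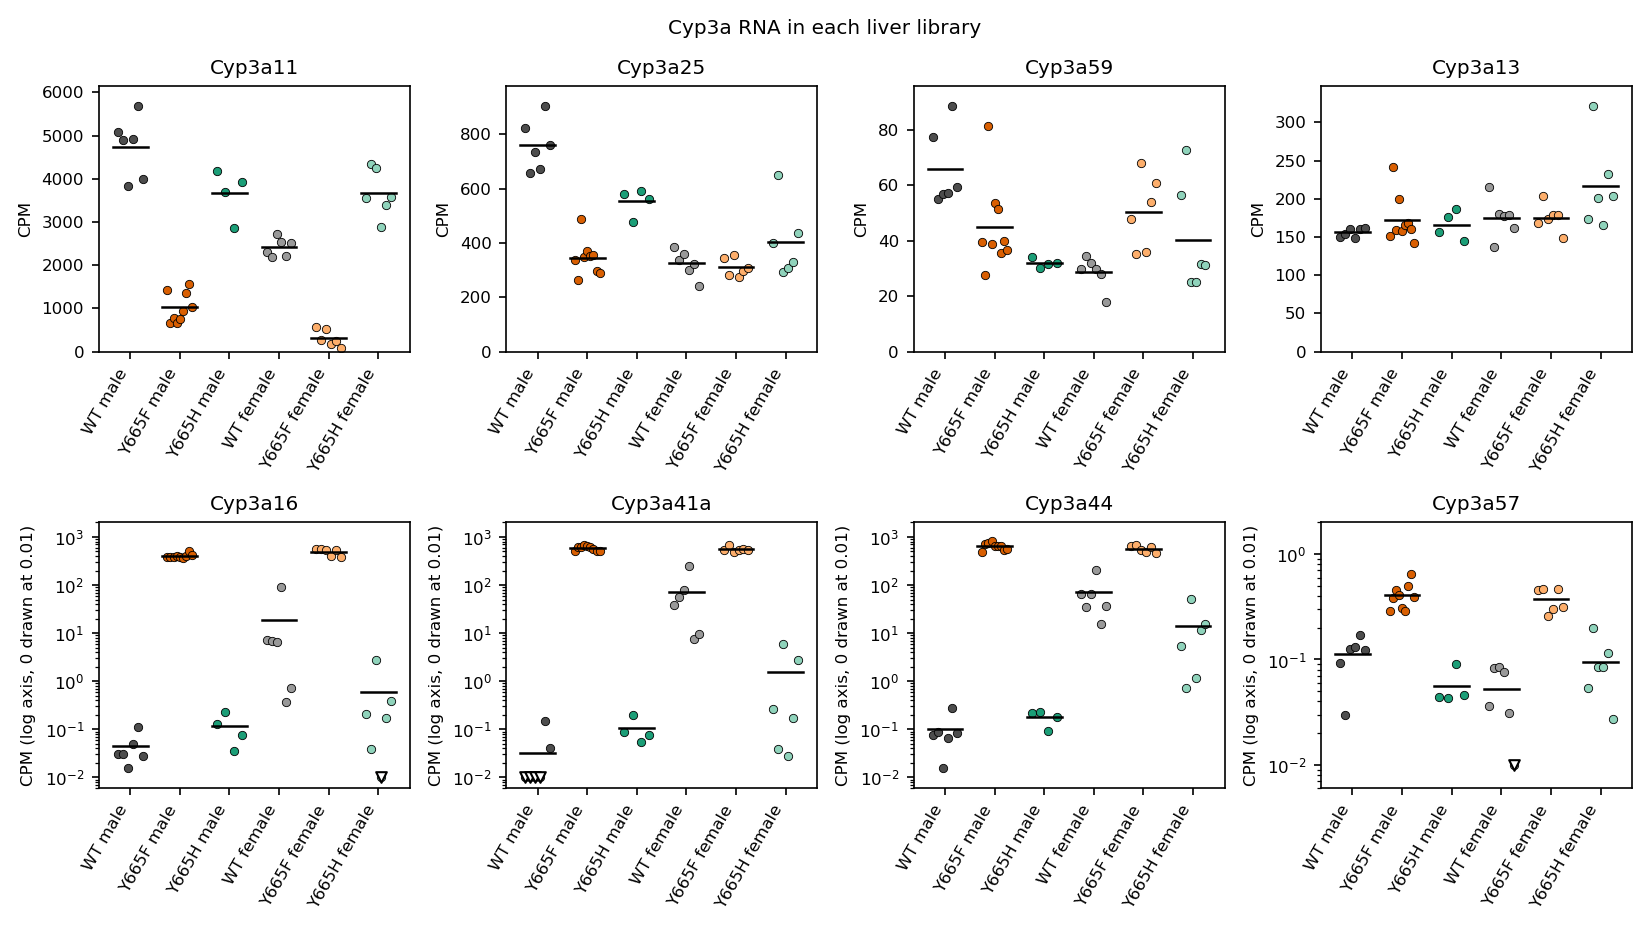
Level of each Cyp3a gene in every library, in CPM, with a linear axis in the top row and a log axis in the bottom row; points are libraries, horizontal bars group means, and triangles libraries with 0 counts. Cyp3a11 is lowest in both Y665F groups, while Cyp3a16, Cyp3a41a and Cyp3a44 lie between 362 and 819 CPM in every Y665F library of both sexes and at or below 0.282 CPM in every WT and Y665H male.

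Cyp3a16, Cyp3a41a and Cyp3a44 went from traces to among the main Cyp3a RNAs in Y665F males. Cyp3a41a had 11 counts in all 6 WT males together, with 4 of them at 0 (pooled 0.0288 CPM, exact Poisson 95% interval 0.0144 to 0.0515, counting error only). WT male replicate 5 held 8 of these counts, and the mean of the other libraries was 0.00823 CPM. In Y665F males Cyp3a41a ran from 510 through a median of 616 to 680 CPM. Cyp3a44 was 0.0768, 0.0900, 0.0159, 0.0656, 0.282 and 0.0823 CPM in WT males, 1 to 15 counts a library, and ran from 486 through 639 to 819 CPM in Y665F males. Cyp3a16 had 1 to 6 counts in a WT male, at most 0.113 CPM, and ran from 362 through 391 to 523 CPM in Y665F males. No Y665F male overlapped a WT male for any of these genes, and every Y665F male had at least 22612 counts of each. The fitted log2 fold changes were 14.20 (SE 1.03) for Cyp3a41a, 12.65 (SE 0.90) for Cyp3a44 and 13.15 (SE 1.09) for Cyp3a16, with adjusted p-values of 7.43e-14, 4.26e-14 and 2.14e-12. Against so few counts the size of these folds depends on the fit's prior count and is no bound.

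Y665F females reached similar levels, and WT females started higher and varied more than WT males. WT females had 39.2, 57.4, 78.8, 244, 7.58 and 9.84 CPM of Cyp3a41a, a range of 32.2-fold between libraries. For Cyp3a44 they had 65.3, 34.7, 66.6, 206, 15.3 and 36.3 CPM. For Cyp3a16 they had 7.23, 6.82, 6.66, 90.03, 0.368 and 0.708 CPM, a range of 244-fold. Replicate 4 was the highest and replicate 5 the lowest of the 6 for all 3 genes. Y665F females held 498 to 688 CPM of Cyp3a41a, 472 to 676 CPM of Cyp3a44 and 379 to 557 CPM of Cyp3a16, above every WT female. The log2 fold changes were 2.94 (SE 0.56, adjusted p 5.81e-05), 3.00 (SE 0.54, adjusted p 2.86e-05) and 4.71 (SE 0.66, adjusted p 5.57e-07). Without WT female replicate 4 the WT means fell from 72.8 to 38.6 CPM for Cyp3a41a, from 70.7 to 43.7 CPM for Cyp3a44 and from 18.6 to 4.36 CPM for Cyp3a16. Without it the log2 fold changes, the highest of any library left out, were 3.86, 3.70 and 6.81.

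The sex difference seen in WT was not detected in Y665F for these genes. In WT, females exceeded males with a log2 difference, males minus females, of -11.18 for Cyp3a41a, -9.47 for Cyp3a44 and -8.73 for Cyp3a16 (adjusted p 5.37e-11, 5.20e-11 and 4.37e-08). In Y665F the same differences were 0.07 (SE 0.47), 0.18 (SE 0.46) and -0.29 (SE 0.51), with adjusted p-values of 0.915, 0.785 and 0.682. The interaction, the male effect of Y665F minus its female effect, was 11.26 for Cyp3a41a, 9.65 for Cyp3a44 and 8.44 for Cyp3a16, each called (adjusted p 3.47e-09, 3.11e-09 and 4.55e-06). For Cyp3a16 the fit of the compared groups alone called a lower level in Y665F males (log2 -0.33, adjusted p 0.0101).

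Y665H females had less of all 3 RNAs than WT females. Cyp3a41a was 0.265, 0.0396, 5.88, 0.0282, 0.172 and 2.79 CPM, each below every WT female, with a log2 fold change of -5.53 (SE 0.68, adjusted p 1.65e-05). Cyp3a16 was 0.212, 0.0396, 2.70, 0, 0.172 and 0.379 CPM, with a log2 fold change of -4.96 (SE 0.82, adjusted p 0.000654), and 4 of 6 lay below every WT female. Cyp3a44 was 5.52, 0.712, 51.3, 1.15, 11.5 and 15.5 CPM, with a log2 fold change of -2.30 (SE 0.54, adjusted p 0.00882), and again 4 of 6 lay below every WT female. Y665H female replicate 3 was the highest of its group for all 3 genes, and without it the group means were 0.659, 0.161 and 6.87 CPM for Cyp3a41a, Cyp3a16 and Cyp3a44. WT female replicate 4 weighs most on the other side: without it the log2 fold changes were -4.62, -2.86 and -1.60 for Cyp3a41a, Cyp3a16 and Cyp3a44, each still called, the last with an adjusted p of 0.0485. In a fit of the compared groups alone the call for Cyp3a41a held, whereas the adjusted p was 0.0831 for Cyp3a16 and 0.168 for Cyp3a44; limma-voom gave 0.0579 for Cyp3a16.

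Y665H males stayed at trace level. Against Y665F the 3 genes were called lower with Y665H in both sexes, at log2 fold changes of -12.38, -11.65 and -11.74 for Cyp3a41a, Cyp3a16 and Cyp3a44 in males and -8.48, -9.67 and -5.31 in females. Cyp3a41a had 3 to 14 counts a library, Cyp3a16 2 to 16 and Cyp3a44 5 to 16, at most 0.230 CPM, and none of the 3 was called against WT males (adjusted p 0.668, 0.736 and 0.762). Y665H had a called female excess of Cyp3a44 (males minus females -6.26, SE 0.93, adjusted p 4.48e-06) and of Cyp3a41a (-3.83, SE 1.17, adjusted p 0.0122). For Cyp3a41a the call was lost with limma-voom (log2 -1.90, adjusted p 0.631) and without Y665H female replicate 3 (log2 -2.66, adjusted p 0.108). In all 3 genes the order of mean levels was Y665F of both sexes, whose ranges overlapped, then WT females, Y665H females, Y665H males and WT males. The gap between Y665F and WT females was free of overlap in each gene. WT and Y665H females overlapped for Cyp3a16 and Cyp3a44, Y665H females and males for Cyp3a16 and Cyp3a41a, and Y665H and WT males for all 3.

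**Figure D3:**
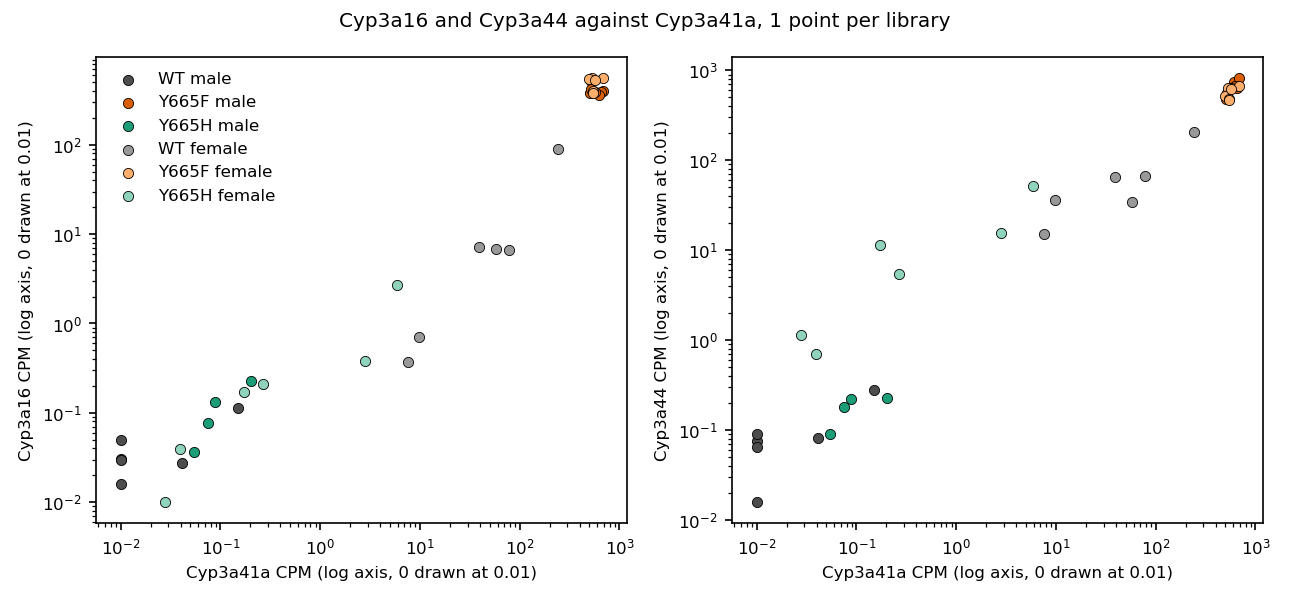
CPM of Cyp3a16 (left) and Cyp3a44 (right) against Cyp3a41a in each of the 37 libraries, on log axes with 0 drawn at 0.01; colours are the 6 groups. Both Y665F groups gather at the upper right, WT females spread over the middle with replicate 4 nearest to Y665F, and WT and Y665H males lie at the lower left.

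Pearson's r between Cyp3a41a and Cyp3a44 was positive inside each of the 6 groups, and that of Cyp3a16 with either in 5 of 6. Pooled over 37 libraries, r of deviations from the group means (log2 CPM, prior count 2) was 0.89 between Cyp3a16 and Cyp3a41a, 0.88 between Cyp3a41a and Cyp3a44 and 0.83 between Cyp3a16 and Cyp3a44. Group by group, r between Cyp3a41a and Cyp3a44 was 0.63 (Y665F females) to 0.90. Between Cyp3a16 and Cyp3a41a it was -0.49 in the 9 Y665F males and 0.30 in the 6 Y665F females, and 0.79 to 0.98 in the WT and Y665H groups. Between Cyp3a16 and Cyp3a44 it was -0.39 in Y665F males and 0.86 to 0.93 elsewhere. In Y665F males replicate 8 was the highest for Cyp3a16. The pooled values weigh most the groups whose levels spread widely on a log scale, and values in WT and Y665H males rest on traces. The libraries share their depth and the genes share sequence: 47 of the 100-base windows of Cyp3a41a also occur in Cyp3a44. Cyp3a16 shared no such window with either. Cyp3a11 had an r of at most 0.18 with any of them within groups, although over all libraries it ran opposite to them (r = -0.83, -0.79 and -0.76 for Cyp3a16, Cyp3a41a and Cyp3a44).

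Of the 28 pairs among the 7 tested members and Cyp3a57, 5 had promoters at least 90% identical over 250 bases. Their within-group r had a median of 0.84 and a range of 0.28 to 0.89. In the other 23 pairs the median was 0.03 and the highest 0.30. Cyp3a57 was at trace level in the WT and Y665H groups, so its pairs rest partly on values near the floor. They lie on both sides of the cut with like r: 0.28 with Cyp3a59 (90.2% identical) and 0.30 with Cyp3a25 (89.0%). These are descriptions across pairs that share genes, and the pairs of Cyp3a16 with Cyp3a41a and Cyp3a44 went the other way among Y665F males.

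**Figure D4:**
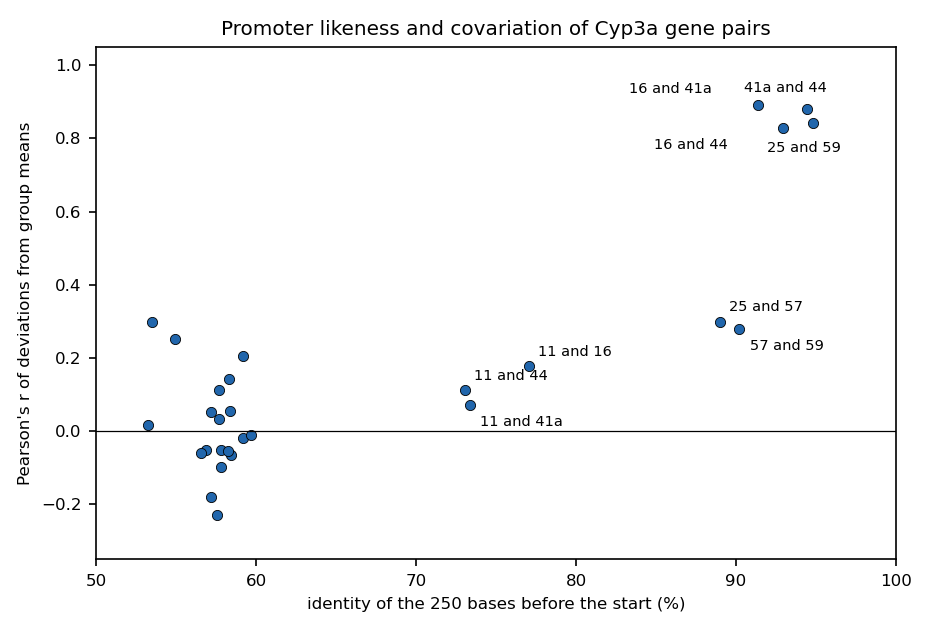
Pearson's r of deviations from group means over 37 libraries (vertical) against identity of the 250 bases before the start in percent (horizontal) for 28 pairs of Cyp3a genes, labelled by gene number where identity exceeds 70%. The pairs 16 and 41a, 41a and 44, 16 and 44, and 25 and 59 lie at the upper right with pooled r from 0.83 to 0.89.

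Cyp3a25 was a male-predominant form that fell in Y665F males to levels overlapping those of females. WT males had 824, 657, 734, 673, 906 and 761 CPM. Y665F males ran from 263 through 348 to 490 CPM, all below every WT male, with a log2 fold change of -1.14 (SE 0.13, adjusted p 3.81e-09). WT females had 385, 336, 360, 302, 323 and 243 CPM and Y665F females 343, 281, 355, 276, 298 and 307 CPM, with a log2 fold change of -0.07 (SE 0.14, adjusted p 0.737). The interaction of -1.07 (SE 0.19) was called (adjusted p 7.64e-05). The male excess was 2.34-fold in WT (adjusted p 1.91e-08) and was not detected in Y665F (log2 0.15, SE 0.13, adjusted p 0.362).

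With Y665H, Cyp3a25 was 582, 476, 590 and 564 CPM in males. All 4 lay below every WT male, at a log2 fold change of -0.46 (SE 0.16) and an adjusted p of 0.0733; the fit of the compared groups alone gave 0.0113 and DESeq2 gave 0.0448. Y665H females had 401, 652, 295, 306, 330 and 438 CPM, with a log2 fold change of 0.31 (SE 0.14, adjusted p 0.169). The interaction for Y665H was -0.77 (SE 0.22, adjusted p 0.0318), and leaving out, 1 at a time, WT female replicate 4 or 6, WT male replicate 5, Y665H female replicate 2 or Y665H male replicate 2 or 3 raised the adjusted p to between 0.0508 and 0.0660, and the fit of the compared groups alone gave 0.0572. A male excess was called in Y665H (log2 0.45, SE 0.16, adjusted p 0.0277). Leaving out, 1 at a time, Y665H female replicate 3, 4 or 5 or Y665H male replicate 1, 3 or 4 raised its adjusted p to between 0.0529 and 0.0724, and it was 0.0522 with the replicate number as a block, 0.115 in the fit of the compared groups alone and 0.288 with the share of reads in no gene as a covariate. Against Y665F, Cyp3a25 was 1.60-fold higher in Y665H males (adjusted p 0.000268) and 1.30-fold higher in Y665H females (adjusted p 0.0243; 0.201 without Y665H female replicate 2, 0.0530 without Y665F female replicate 4 and 0.105 in the fit of the compared groups alone).

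Cyp3a59, the closest relative of Cyp3a25, fell in males with either substitution and rose in Y665F females. WT males had 77.6, 55.1, 56.9, 57.1, 88.8 and 59.6 CPM. Y665F males ran from 27.8 through 39.5 to 81.6 CPM, and 8 of 9 lay below every WT male; replicate 3, at 81.6, did not. The log2 fold change was -0.55 (SE 0.21, adjusted p 0.0246), and the adjusted p was 0.0701 without WT male replicate 5, 0.121 with the share of reads in no gene as a covariate and 0.130 with the replicate number as a block. Y665H males had 34.3, 30.2, 31.7 and 32.1 CPM, all below every WT male (log2 -1.04, SE 0.26, adjusted p 0.0126). This call was lost with the share of reads in no gene as a covariate (log2 -0.90, adjusted p 0.106); that share was 14.3% ± 1.77 (SD, n = 4) in Y665H males.

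In WT females Cyp3a59 was 29.8, 34.5, 32.0, 29.9, 28.1 and 17.9 CPM. Y665F females had 47.8, 35.3, 67.9, 36.0, 54.1 and 61.0 CPM, each above every WT female (log2 0.81, SE 0.23, adjusted p 0.00584). Y665H females had 56.4, 72.8, 25.1, 25.0, 31.7 and 31.1 CPM: 2 lay above every WT female and 4 within the WT range, and the log2 fold change of 0.49 (SE 0.23) did not pass the test (adjusted p 0.191). The interaction was -1.36 for Y665F (SE 0.31, adjusted p 0.00125) and -1.52 for Y665H (SE 0.35, adjusted p 0.0102). Within groups Cyp3a25 and Cyp3a59 had an r of 0.84. They share 115 of the 1901 windows of Cyp3a25, and Y665F male replicate 3 was the highest of its group for both.

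Cyp3a13, the member outside the cluster, varied little. Group means lay between 156 CPM in WT males and 216 CPM in Y665H females, all neighbouring ranges overlapped, and no substitution was called against WT in either sex (adjusted p 0.301 and 0.983 for Y665F, 0.743 and 0.121 for Y665H, males and females). Y665H females were 1.24-fold above Y665F females (adjusted p 0.0338) and 1.30-fold above Y665H males (adjusted p 0.0334). Y665H female replicate 2, at 322 CPM, was the highest library; without it the adjusted p-values were 0.230 and 0.146. The first call was lost in 5 ways of leaving out 1 library (Y665F female replicate 1, 3 or 6, Y665H female replicate 2 or 5) and the second in 4 (Y665H female replicate 2 or 5, Y665H male replicate 1 or 4). The first was also lost with DESeq2 size factors (adjusted p 0.05002), thinning to the lowest library total (0.0614), no filter (0.0639), the share of reads in no gene as a covariate (0.104) and the compared groups alone (0.124), and the second with that covariate (0.136) and the compared groups alone (0.179).

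The sum of the family's RNA and its make-up both differed between groups. Summed CPM was 5720 ± 763 in WT males, 3226 ± 243 in Y665F males, 4423 ± 549 in Y665H males, 3102 ± 337 in WT females, 2472 ± 354 in Y665F females and 4343 ± 693 in Y665H females (SD, n = 6, 9, 4, 6, 6 and 6). Cyp3a11 made up 82.7% ± 2.15 of these counts in WT males and 31.4% ± 8.68 in Y665F males. In females it made up 78.0% ± 4.56 in WT and 12.0% ± 6.34 in Y665F. The share of Cyp3a16, Cyp3a41a and Cyp3a44 together was 0.00291% ± 0.00258 in WT males, 51.1% ± 6.73 in Y665F males, 4.86% ± 5.20 in WT females and 66.0% ± 5.32 in Y665F females. WT female replicate 4 was at 15.1% and the next WT female at 4.41%. In Y665H the 3 genes made up 0.00901% ± 0.00434 in males and 0.361% ± 0.460 in females, and Cyp3a11 82.7% ± 3.16 and 84.5% ± 2.41. For the 3 genes Y665H female replicate 3 was at 1.24% and the next Y665H female at 0.437%. Summed over the rows of the cluster, the log2 fold change was -0.87 and -0.35 with Y665F and -0.39 and 0.50 with Y665H, in males and females, given as a description.

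**Figure D5:**
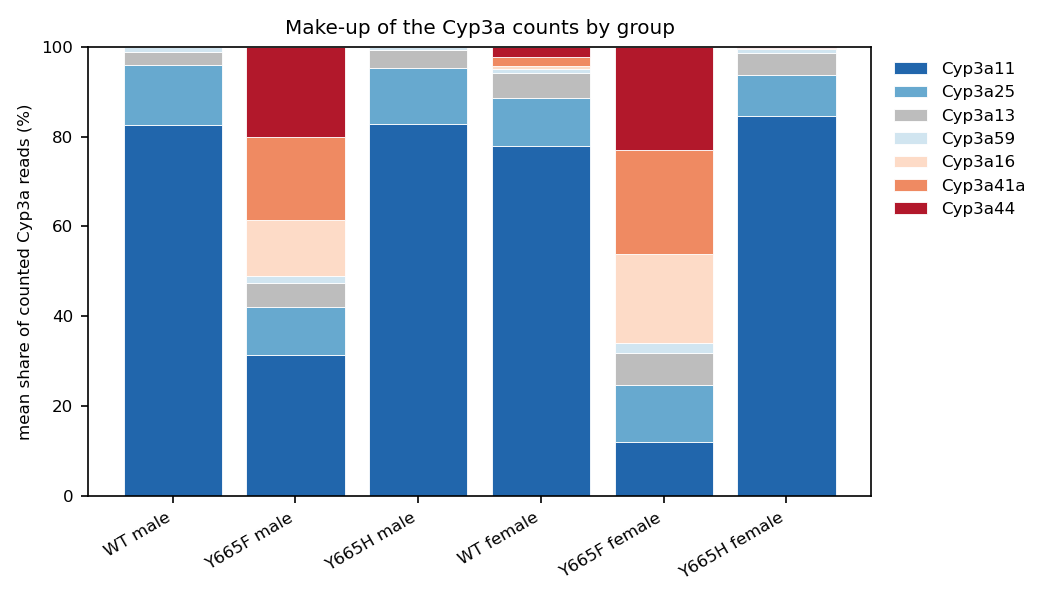
Mean share of counted Cyp3a reads taken by each member in each of the 6 groups, in percent, stacked to 100. Cyp3a11 takes 78.0% to 84.5% in the WT and Y665H groups, and Cyp3a16, Cyp3a41a and Cyp3a44 take 51.1% and 66.0% in Y665F males and females.

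Levels between genes were compared per kilobase of coding sequence, which was 1509 or 1512 bases in each, leaving out Cyp3a41a and Cyp3a41b. In WT males Cyp3a11 was at 3134, Cyp3a25 at 503, Cyp3a13 at 103 and Cyp3a59 at 43.6 CPM per kilobase. In Y665F males Cyp3a11 was at 679, Cyp3a44 at 425, Cyp3a16 at 267 and Cyp3a25 at 229 CPM per kilobase. In Y665F females Cyp3a44, at 376, and Cyp3a16, at 326, stood above Cyp3a11, at 207 CPM per kilobase. This division leaves out the untranslated parts, and whole transcripts ran from 1730 (Cyp3a16) to 2956 bases (Cyp3a13). Per kilobase of transcript, Cyp3a11 was at 2022 and Cyp3a13 at 52.7 CPM in WT males. In Y665F females Cyp3a44 was then at 290, Cyp3a16 at 285 and Cyp3a11 at 134 CPM.

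Cyp3a57, at the edge of the cluster, was rare. It was 0.0300 to 0.169 CPM in WT males and 0.291 to 0.655 CPM in Y665F males, and 0 to 0.0857 CPM in WT females and 0.260 to 0.467 CPM in Y665F females, so every Y665F library exceeded every WT library of its sex. Y665H males had 0.0431 to 0.0907 CPM and Y665H females 0.0271 to 0.198 CPM. It passed the filter on low counts only through the 15 Y665F libraries, so these levels are a description, with no test. The nearest tested genes outside the cluster were examined as well. Against WT, Zkscan5, Zfp655 and Zscan25 before it and Rnf6 and Cdk8 after it had log2 fold changes of at most 0.76 in size. That value, Zfp655 in Y665F females, was called (adjusted p 7.17e-05). Also called with Y665F were Zkscan5 in females (0.00346), Rnf6 in males and females (0.00231 and 0.0207) and Cdk8 in males (0.0151). Gpr12, an orphan receptor at 0.823 ± 0.0827 CPM in WT males (SD, n = 6), rose by 0.68 in Y665F males and 1.42 in Y665F females (adjusted p 0.00396 and 6.13e-06). With Y665F 52.5% of all genes were called in males and 41.0% in females. None of these neighbours was called with Y665H against WT. Of 10 other RefSeq genes inside the cluster, 0 had a row in the files.

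Genes whose pattern over the 37 libraries was most like each member were ranked by Pearson's r among 12117 genes. For Cyp3a11 they were Slco1b2 (r = 0.96), a hepatic uptake transporter of organic anions, Enpp3 (0.96) and Il1rap (0.95), a subunit of the interleukin-1 receptor. Slco1b2 was 1571 ± 101 CPM in WT males and 967 ± 60.7 in Y665F males, 1213 ± 115 in WT females and 566 ± 101 in Y665F females (SD, n = 6, 9, 6 and 6). For Cyp3a44 they were A1bg (0.99), Eci3 (0.98) and Nt5e (0.98), the ecto-5′-nucleotidase. A1bg and Eci3 also led within groups (0.81 and 0.80). A1bg, a female-predominant secreted protein, was 0.204 ± 0.228 CPM in WT males, 3772 ± 581 in Y665F males, 160 ± 161 in WT females and 3122 ± 197 in Y665F females (SD, n = 6, 9, 6 and 6). For Cyp3a41a they were A1bg (0.97), Eci3 (0.96) and the sulphotransferase Sult2a1 (0.95), for Cyp3a16 Fut8, Eci3 and Camkk2 (0.96 each), and for Cyp3a25 Ugt1a6a (0.91), a glucuronosyltransferase that was also its nearest gene within groups (0.76). Other members had different leaders within groups. For Cyp3a11 these were Creb1, Zfp260 and Picalm (0.77, 0.77 and 0.76). They were Dpm1, Sult3a1 and Sult2a1 (0.76, 0.73 and 0.71) for Cyp3a41a, and Eci3, Dpm1 and Sult2a1 (0.69, 0.68 and 0.67) for Cyp3a16.

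Regulators of P450 genes called with Y665F were all lower, at a share near that of all genes in males and above it in females. Of 14 tested, 0 rose and 4 fell in Y665F males, 0 rose and 8 fell in Y665F females, 1 rose and 1 fell in Y665H males, and 0 were called in Y665H females, with medians of -0.10, -0.23, -0.06 and -0.02. The 28.6% called in Y665F males, all lower, compare with 52.5% of all genes called and 25.3% lower, and the 57.1% lower in Y665F females with 23.3%. With Y665H 14.3% were called in males and 0% in females, beside 8.40% and 7.50%. The interaction with sex was called for 2 of the 14 with Y665F (14.3%, beside 27.7% of all genes), 1 above and 1 below 0. Nr1i2 (PXR) was 78.6 ± 4.64 CPM in WT males (SD, n = 6) and fell by 0.46 on the log2 scale in Y665F males (adjusted p 1.83e-05) and by 0.45 in Y665H males (adjusted p 0.00655). In females its log2 fold change was -0.11 with Y665F (adjusted p 0.357) and -0.05 with Y665H. Foxa1, a pioneer factor of liver genes, fell by 0.83 in Y665F males and 1.22 in Y665F females, and Nr0b2 (SHP), a bile acid-induced repressor, by 0.70 and 1.04. Nr1h4 (FXR), the bile acid receptor, fell by 0.79 in Y665F females. Nr1i3, the constitutive androstane receptor (CAR), was not called against WT in any of the 4 comparisons.

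Among growth hormone signalling genes and regulators of sex-dependent expression, 9 of 12 rose and 1 fell in Y665F males, and 2 rose in Y665F females; with Y665H, 1 rose and 1 fell in males and 2 fell in females. Medians were 0.67, 0.01, -0.12 and -0.14. The 75.0% higher in Y665F males compare with 27.2% of all genes, and the 16.7% higher in Y665F females with 17.8%. With Y665H the 8.33% higher and 8.33% lower in males compare with 5.22% and 3.18%, and the 16.7% lower in females with 3.10%. Cux2, a female-specific repressor of male genes, was 0.796 ± 0.140 CPM in WT males, 112 ± 19.2 in Y665F males, 75.6 ± 22.1 in WT females and 248 ± 19.6 in Y665F females (SD, n = 6, 9, 6 and 6). It fell in Y665H females (log2 -1.30, adjusted p 0.0119) to 30.7 ± 27.7 CPM (SD, n = 6). Bcl6, a male-predominant repressor that competes with STAT5 at shared sites, fell by 2.20 in Y665F males (adjusted p 3.49e-09), against a value of 0.16 in Y665F females (adjusted p 0.684).

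Most other hepatic P450 genes passed the test with Y665F. Of 25, 10 rose and 12 fell in Y665F males, 2 rose and 18 fell in Y665F females, 7 fell in Y665H males and 2 rose in Y665H females, with medians of -0.26, -0.61, -0.23 and 0.03. The share called with Y665F in males was 88%, beside 52.5% of all genes, and in females 80%, beside 41.0%. With Y665H it was 28% and 8%, beside 8.40% and 7.50%. The female-predominant Cyp2b13 rose by 8.81 in Y665F males and fell by 4.94 in Y665F females, where Cyp3a16, Cyp3a41a and Cyp3a44 rose in both sexes. Cyp2a4, a female-predominant steroid hydroxylase, rose by 10.31 in Y665F males and 1.79 in Y665F females. Cyp2d9, a male-predominant testosterone hydroxylase, fell by 6.67 and 4.74.

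Known targets of PXR and CAR other than Cyp3a did not move in a single direction with Y665F. Of 15 tested, 8 rose and 5 fell in Y665F males and 5 rose and 4 fell in Y665F females; 0 were called in Y665H males and 5 rose in Y665H females, with medians of 0.33, -0.11, 0.01 and 0.31. The shares called were 86.7%, 60%, 0% and 33.3%, beside 52.5%, 41.0%, 8.40% and 7.50% of all genes. The 33.3% in Y665H females were all higher, where 4.40% of all genes were called higher. Cyp2b10, the classical CAR target, rose by 1.67 in Y665F males (adjusted p 4.12e-06) and 0.82 in Y665F females (adjusted p 0.0224), the opposite sign to Cyp3a11. Cyp2c55 fell by 1.74 in Y665F males and rose in Y665H females (1.53, adjusted p 0.00151). In the electron supply and haem list of 13 genes, 4 rose and 2 fell in Y665F males, 4 rose and 5 fell in Y665F females, 2 rose in Y665H males and 3 rose in Y665H females, with medians of 0.00, -0.08, 0.14 and 0.12. The shares called were 46.2%, 69.2%, 15.4% and 23.1%, beside the same 4 all-gene shares. Por, the reductase that gives electrons to all microsomal P450s, rose by 0.47 in Y665F males (adjusted p 0.00253) and passed the test in no other comparison with WT. Of 4 tested fetal liver genes, 2 rose in Y665F males (H19 by 1.98 and Afp by 1.30); in Y665F females Afp rose by 0.85 and Gpc3 by 0.93 while H19 fell by 1.29. These are 50% higher in males, beside 27.2% of all genes, and 50% higher and 25% lower in females, beside 17.8% and 23.3%.

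Markers of other cells moved with Y665F, where 27.2% of all genes were called higher and 25.3% lower in males, and 17.8% and 23.3% in females; with Y665H these shares were 5.22% and 3.18% in males and 4.40% and 3.10% in females. T and NK cell markers (6 of 6 higher in each sex) summed to 5.15 to 14.3 CPM in Y665F males against 1.28 to 2.12 in WT males, and to 5.54 to 8.65 CPM in Y665F females against 2.23 to 3.51 in WT females. In Y665F males, macrophage markers were higher in 6 of 6 (139 to 328 against 88.0 to 132 CPM) neutrophil markers in 5 of 6 (1.59 to 9.06 against 0.365 to 0.827 CPM), proliferation genes in 5 of 6 with 1 lower (21.2 to 35.9 against 6.16 to 10.9 CPM) and stellate cell and fibroblast markers in 4 of 6 (296 to 453 against 195 to 260 CPM). In Y665F females 2 of 6 proliferation genes were higher (17.8 to 27.9 against 8.12 to 14.7 CPM), as were 1 of 6 neutrophil markers, 2 of 5 endothelial markers and 0 of 6 macrophage and stellate cell markers. Lower in Y665F females were 1 of 6 stellate cell and fibroblast markers and 1 of 5 cholangiocyte markers. With Y665H, 1 of 6 T and NK cell markers was lower in each sex. Y665H males also had 1 of 6 macrophage, 1 of 6 neutrophil and 1 of 5 cholangiocyte markers higher, and 1 of 6 proliferation genes lower. Cholangiocyte markers were higher in 1 and lower in 2 of 5 in Y665F males, and endothelial markers higher in 1 of 5. Acute-phase genes, which hepatocytes raise in inflammation, were higher in 5 of 9 in Y665F males (5617 to 14645 against 5292 to 5599 CPM) and 6 of 9 in Y665H males (5603 to 12302 CPM). Y665F male replicate 2 held the 14645 CPM, and the next library was at 7370 CPM. The Y665H males were at 6138, 12302, 11740 and 5603 CPM. In Y665F females 1 of 9 was higher and the sum, 5156 to 6980 CPM, overlapped the 6196 to 8452 CPM of WT females. Periportal markers fell in 7 of 7 tested in Y665F males, 4 of 7 in Y665F females and 6 of 7 in Y665H males, and in 0 of 7 in Y665H females. Pericentral markers were higher in 5 and lower in 2 of 9 in Y665F males (summed 5787 to 10839 against 7788 to 9844 CPM), higher in 1 and lower in 3 of 9 in Y665F females, and higher in 2 of 9 in Y665H males. None of these lists had a member at 0 in every library of a group. The part of these cells and states in the Cyp3a values was not tested.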

How the data were processed

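Total liver RNA with ribosomal RNA removed was sequenced in stranded read pairs on a NovaSeq, per the labels' protocols, which name library kits of 2 makers without saying which libraries used which. Per the submitters' processing notes the tools were FastQC 0.11.9, Trimmomatic 0.36, STAR, SAMtools 1.9, Picard 2.9.2 and HTSeq 0.9.1, with build mm10; the annotation and strand setting are not given in the sources used here. The deposited files hold multiply aligned reads in a row of their own, outside the gene rows. The deposited values are raw counts per gene symbol, judging from whole numbers that sum to different totals. Groups and replicate numbers come from the sample titles, and no libraries were duplicates within sampling noise.

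The tests ran in edgeR 4.0.16 under R 4.3.3: filterByExpr by group (minimum count 10, minimum total 15) kept 15152 genes and left out 9269, TMM scaling, and a quasi-likelihood fit to 37 libraries with a mean per group. P-values were adjusted by Benjamini-Hochberg over all genes tested, a gene was called under 0.05, and SE is the log2 fold change over the root of F. Rows naming no gene were kept out of library sizes. The fit was tested on simulated counts with known changes. Alternatives used limma 3.58.1 (voom) and DESeq2 1.42.0. Poisson intervals are exact at 95%, and the limit for 0 is 3 counts.

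The members and gene lists were chosen with earlier results of these data known. Genes named beyond the members are Stat5b, Nr1i2, Nr1i3, Por, Nr0b2, Cyp2b10, Cux2 and Bcl6, the 3 called genes of each list with the largest changes against WT, the 3 genes most like each member (mean of at least 1 CPM in a group), and the 3 tested genes on each side of the cluster. The hepatocyte markers Alb, Apoa1, Ttr and Fgb were named outside this rule, after their values were seen. Same-numbered samples did not pair: of 15 pairs of groups, 0 had every correlation above 0.1. Sequences are from RefSeq (GRCm38.p6) and GENCODE M21; mm10 is the same build.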

Additional observations from a re-analysis of the deposited data

Results flagged for a closer look

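In 42 sets of a member and a group, 11 held a library set apart from the rest by Dixon's ratio at 95%. Its chance rate of about 1 in 20 holds for independent, normally spread values. The CPM were not on a log scale, and the sets share libraries and related genes. The 11 are therefore a description and are not weighed against that rate. WT female replicate 4 stood high for Cyp3a16 (90.03 CPM), Cyp3a41a (244 CPM) and Cyp3a44 (206 CPM), and the next WT female was at 7.23, 78.8 and 66.6 CPM. Y665H female replicate 3 stood high for Cyp3a16 (2.70 CPM, next 0.379) and Cyp3a44 (51.3 CPM, next 15.5). WT male replicate 5 stood high in the traces of Cyp3a16 (0.113 CPM), Cyp3a41a (0.150 CPM) and Cyp3a44 (0.282 CPM). Y665F male replicate 3 stood high for Cyp3a25 (489.8 CPM) and Cyp3a59 (81.6 CPM), and Y665F male replicate 8 for Cyp3a16 (523 CPM). In each set with more than 1 of these genes, the same library was high for close relatives.

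The effect of Y665F differed between the sexes, by the interaction term (male minus female effect, log2), for Cyp3a41a (11.26), Cyp3a44 (9.65), Cyp3a16 (8.44), Cyp3a59 (-1.36) and Cyp3a25 (-1.07). The effect of Y665H differed for Cyp3a59 (-1.52) and Cyp3a25 (-0.77). For Cyp3a59 both Y665F groups moved past the threshold, in opposite directions.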

How the results depend on the processing

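The rise of Cyp3a16, Cyp3a41a and Cyp3a44 and the fall of Cyp3a11 with Y665F in both sexes kept their direction and their call under every setting run: DESeq2, limma-voom, DESeq2 size factors, no filter, thinning to 24388434 counts, the share of reads in no gene as a covariate, only the groups compared, a fold threshold of 2, a replicate block, and each library left out. Counts of members called moved by more than 1.5 times in 4 comparisons. Y665H against WT males (1 called) gave 0 with the no-gene share as covariate and 2 with only the groups compared or with DESeq2. Males against females in Y665F (1) gave 2 with only the groups compared. Males against females in Y665H (4) gave 2 with the fold threshold or the covariate, 1 with only the groups compared, and 2 to 4 with a library left out. The Y665H interaction (2) gave 1 with the fold threshold, 5 with DESeq2, and 1 to 3 with a library left out. Signs turned for 5 results, none of them called in the fit reported; 1 of them, Cyp3a16 between the Y665F sexes (-0.29), was called in the fit of the compared groups alone. For Cyp3a13 with Y665F in females these were 0.015 (DESeq2, DESeq2 size factors and thinning), 0.011 (no filter), 0.028 (only the groups compared) and -0.051 to 0.064 with a library left out. Cyp3a13 between Y665H and Y665F males gave -0.10 to 0.024 with a library left out. Cyp3a13 between the Y665F sexes gave -0.10 to 0.021 with a library left out, and Cyp3a16 there 0.013 with the covariate. Cyp3a11 between the Y665H sexes gave -0.072 (covariate), -0.0031 (limma-voom) and -0.061 to 0.11 with a library left out. The cause was not tested. Results not called that passed in another setting, beside those given with the members, were the Y665H interaction of Cyp3a11 with only the groups compared (-0.98, adjusted p 0.00316), those of Cyp3a16, Cyp3a41a and Cyp3a44 with DESeq2 (adjusted p 0.000645, 5.66e-05 and 0.0214), that of Cyp3a41a without Y665H female replicate 3 (0.0408), and Cyp3a59 between Y665H and Y665F females without Y665H female replicate 2 (0.0302). With the replicate block the male excess of Cyp3a25 in Y665H (0.44, adjusted p 0.0522) and the fall of Cyp3a59 in Y665F males (-0.44, adjusted p 0.130) were no longer called.

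With the replicate number as a replicate block, Cyp3a13 between the Y665F sexes turned to 0.030 and Cyp3a11 between the Y665H sexes to -0.069; members called with Y665F were 5 in males and 5 in females, and with Y665H 1 and 3. Same-numbered samples correlated between -0.23 and 0.17, so the numbers do not pair them. Depth limits the values of Cyp3a16, Cyp3a41a and Cyp3a44 in WT and Y665H males, which rest on at most 16 counts a library.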
